A study of Homo sapiens with 8 samples.

Results

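Integrins are the receptors by which cells hold on to the extracellular matrix, and the data set covers 10 genes that encode their subunits: the alpha subunit genes ITGA2, ITGA3, ITGA5, ITGA6 and ITGAV and the beta subunit genes ITGB1, ITGB3, ITGB4, ITGB5 and ITGB8. They were chosen by name among the 43317 genes of a 2-colour Agilent expression array, and all 12 of their probes were read on each of 8 arrays. On every array, RNA of mock-treated cells carried the dye Cy3 and RNA of treated cells of the same line carried Cy5. PC3 cells, a prostate cancer line, received bisamide for 24 h, bisamide for 48 h or miR-125b-1-3p. C4-2 cells, another prostate cancer line, received miR-199-3p. The kidney cancer line 786-O received miR-532-5p or miR-532-3p, and the bladder cancer line T24 received miR-140-5p or miR-140-3p. Bisamide is a small molecule that binds the protein pirin, although the labels list it under transfection. The miRNAs were introduced with a lipid reagent, whereas the mock cells are labelled as not transfected, so the reagent and the miRNA cannot be told apart on these arrays. The labels do not say whether the mocks of the bisamide arrays received its solvent. Each of the 8 groups held 1 array, and the dyes were not swapped, so dye and treatment cannot be told apart either and no p-value was computed for treated against mock.

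An integrin is a pair of 1 alpha and 1 beta subunit, and the pair sets what the receptor binds. ITGB1 is the common partner, which joins ITGA2 to bind collagens, ITGA3 or ITGA6 to bind laminins, and ITGA5 to bind fibronectin. ITGB4 pairs with ITGA6 alone and anchors epithelial cells to laminin in hemidesmosomes. ITGAV joins ITGB1, ITGB3, ITGB5 or ITGB8 in receptors that recognise the RGD motif of vitronectin, fibronectin and latent TGF-beta. In tumour cells these receptors are known for their part in migration and invasion, which the study measured in its prostate lines.

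The 6 transfected miRNAs are given here as their mature sequences from RefSeq (GRCh38.p14), because their seeds, bases 2 to 8 in capitals, determine most of the pairing with target transcripts.
miR-199-3p: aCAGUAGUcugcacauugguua
miR-125b-1-3p: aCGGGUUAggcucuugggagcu
miR-532-5p: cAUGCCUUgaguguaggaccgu
miR-532-3p: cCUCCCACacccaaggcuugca
miR-140-5p: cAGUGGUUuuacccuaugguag
miR-140-3p: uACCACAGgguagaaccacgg
The sequence printed for miR-199-3p is that of miR-199a-3p, which is the same as that of miR-199b-3p. The 5p and 3p strands of miR-532, and those of miR-140, come from opposite arms of the same hairpin, and no seed is shared among the 6. The letters complementary to a seed were looked for in the 60-base probes, on the transcript strand. None of the 12 integrin probes held a match to any of the 6 seeds, and the share of all 58201 probes with a match ran from 0.0361% for miR-125b-1-3p (TAACCCG) to 0.607% for miR-140-3p (CTGTGGT). A probe covers a small part of a transcript, and the rest of the integrin transcripts was not searched here.

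The mock signals were read against the line labels before use. KLK3, the gene of prostate-specific antigen, had a raw Cy3 signal of 13590 in C4-2 and was not well above background in the other lines, where it read 21.4 to 22.6. Of the kidney markers, CDH6 and VCAM1 were above background in 786-O and in no other line, at 153 to 164 and 146 to 148. PAX8 and PAX2 were above background in 786-O too, but their raw signals were higher in T24. The urothelial genes UPK1B, UPK2 and UPK3A were not above background in T24. KRT7, the other urothelial marker, read 438 to 443 in T24. It was above background in all 4 lines and highest in PC3, at 2783 to 5907. VIM, a mesenchymal marker, read 453 in C4-2 and 9119 to 17620 in the other lines. The blood and endothelial markers PTPRC, CD3E, PECAM1 and VWF read at most 45.1 on any mock, although PTPRC passed the scanner's background test in all 4 lines, next to a median of 22.7 to 24.9 over all spots of an array.

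The mock channel first gives the integrin make-up of the untreated lines. 786-O had the highest level of 7 of the 10 genes, namely ITGA3, ITGA5, ITGAV, ITGB1, ITGB3, ITGB5 and ITGB8. PC3 was highest for ITGA2 and ITGB4, and T24 for ITGA6. C4-2 stood at the other end, with ITGA2, ITGA3, ITGB3, ITGB4 and ITGB8 not well above background. Levels are log2 Cy3 signals after quantile normalization. 786-O also led for 7 genes under each other scaling tried, but on the raw scale it led for 4, with PC3 highest for ITGA3 and ITGB1 and T24 for ITGAV. Its raw signals were 497 to 524 for ITGA3, 343 to 348 for ITGB1 and 542 to 543 for ITGAV, against 640 to 1056 and 518 to 749 in PC3 for the first pair and 762 to 772 in T24 for ITGAV. Both 786-O arrays, and likewise both T24 arrays, appear to carry the same mock by the number in their deposited names, and their mock signals differed by an SD of 0.062 to 0.090 across genes, against 0.14 to 0.21 between PC3 mocks. They were therefore averaged, which left 3 mocks of PC3 and 1 of each other line. The spread in the limma test comes from PC3 alone, the lone mocks are assumed to vary like it, and nothing says that the PC3 mocks were separate cultures, so the p-values may measure technical spread.

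**Figure D1:**
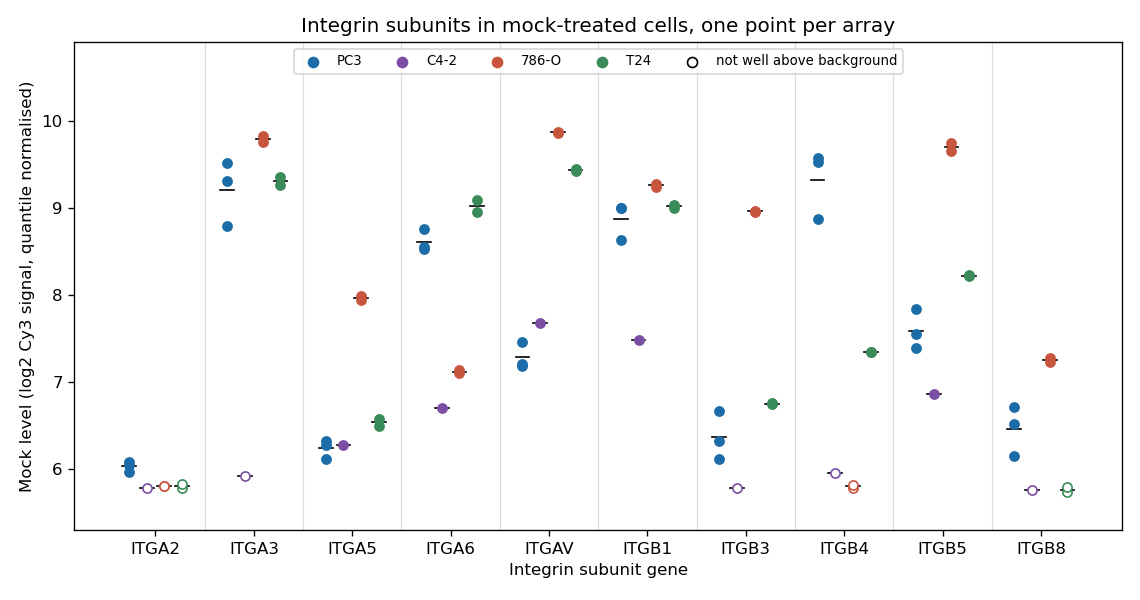
Mock level of each integrin subunit (log2 Cy3 signal, vertical axis) in PC3, C4-2, 786-O and T24; each point is 1 array, the bar is the mean of a line's arrays, and open points were not well above background. The 786-O points are the highest for 7 of the 10 genes, and 5 of the 10 C4-2 points are open.

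Of the 10 integrin genes, 6 differed between the PC3 and C4-2 mocks at an adjusted p under 0.05, all higher in PC3, where 45.6% of the 22625 genes tested differed. PC3 and 786-O differed in 6, with 2 higher in PC3, beside 33.8% of all genes, and PC3 and T24 in 2, with 1 in each direction, beside 29% of all genes. C4-2 was lower than 786-O for 7 (36.8% of all genes differed) and lower than T24 for 5 (37.3%). 786-O was higher than T24 for 4 and lower for 1, beside 22.9% of all genes. Where a gene was not well above background in a line, a fold is a lower bound against the larger of its own signal and the lowest signal measured above background. The limma p-value beside such a fold belongs to the computed difference, which uses the dim signal as read, and not to the bound.

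Among the alpha subunits, the collagen-binding ITGA2 was measured in PC3 alone, at 6.03 ± 0.056 (SD, n = 3). Its levels of 5.78 in C4-2, 5.81 in 786-O and 5.81 in T24 were not well above background. PC3 was at least 1.09-fold higher than C4-2 (limma, adjusted p = 0.0446), a difference that lost its call without the mock of the 24 h array (adjusted p = 0.115), without that of the 48 h array (0.135) and with all genes tested (0.0507). The laminin-binding ITGA3 stood at 9.79 in 786-O, 9.31 in T24 and 9.20 ± 0.38 (SD, n = 3) in PC3, and these neighbours in the order were not told apart (adjusted p = 0.463 and 0.845). In C4-2 it was not well above background, at least 14.6-fold below 786-O, 10.5-fold below T24 and 9.74-fold below PC3 (limma, adjusted p = 0.00657, 0.00877 and 0.00468). The ITGA3 gap between 786-O and C4-2 was the widest between any of the lines among the alpha subunits.

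ITGA5, the alpha subunit of the fibronectin receptor, set 786-O apart from the rest. Its raw Cy3 signals were 133 and 127 in 786-O, 60.6 and 67.7 in T24, 35.1 in C4-2, and 56.7, 41.5 and 56.2 in PC3. On the normalized scale 786-O was 2.69-fold higher than T24 (limma, adjusted p = 0.00908), 3.21-fold higher than C4-2 (0.00358) and 3.31-fold higher than PC3 (0.00298). T24, C4-2 and PC3, at 6.54, 6.28 and 6.24 ± 0.11 (SD, n = 3), were not told apart.

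ITGA6 followed another order, led by T24 at 9.02 and PC3 at 8.61 ± 0.13 (SD, n = 3), which did not pass the test (limma, adjusted p = 0.079, or 0.0127 without the mock of the miR-125b-1-3p array). PC3 was 2.82-fold higher than 786-O (limma, adjusted p = 0.00484) and 3.75-fold higher than C4-2 (0.00191). 786-O and C4-2, at 7.12 and 6.71, were next to each other at the low end (adjusted p = 0.105, or 0.0176 without the same mock). On the second ITGA6 probe the levels of T24 and PC3 overlapped, with 7.50 and 7.56 on the T24 arrays and 7.35, 7.35 and 7.73 on the PC3 arrays.

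ITGAV was high in 786-O and T24, at 9.87 and 9.43, which did not pass the test (limma, adjusted p = 0.156, or 0.0246 without the mock of the miR-125b-1-3p array). T24 was 3.37-fold higher than C4-2 (adjusted p = 0.00592) and 4.42-fold higher than PC3 (0.00417). C4-2 at 7.68 stood above PC3 at 7.29 ± 0.15 (SD, n = 3), which missed the threshold (adjusted p = 0.0901, or 0.00857 without the mock of the miR-125b-1-3p array). On the raw scale the order of these 2 lines was the opposite, with 106 in C4-2 and 151 to 211 in PC3.

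Among the beta subunits, ITGB1, the common partner, lay within 0.39 on the log2 scale in 786-O, T24 and PC3. Its level was 9.26 in 786-O, 9.02 in T24 and 8.88 ± 0.22 (SD, n = 3) in PC3, with no neighbours told apart (limma, adjusted p = 0.528 and 0.632). C4-2 at 7.48 was 2.63-fold below PC3 (adjusted p = 0.00954), 2.90-fold below T24 (0.0152) and 3.43-fold below 786-O (0.0109). ITGB5, a vitronectin receptor subunit, followed the order 786-O, T24, PC3 and C4-2, at 9.70, 8.22, 7.59 ± 0.22 (SD, n = 3) and 6.87. 786-O was 2.78-fold higher than T24 (limma, adjusted p = 0.028), a call lost without the mock of the 24 h array (0.0862) and with the 75th percentile scaling (0.0542). T24 and PC3 were not told apart (adjusted p = 0.0908). PC3 was 1.65-fold higher than C4-2 (0.0497), and this call was lost without the mock of the 24 h array (0.123), with all genes tested (0.0829) and with the mean over probes (0.0525).

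ITGB3, which pairs with ITGAV in the classical vitronectin receptor, was highest in 786-O by a wide margin. Its raw Cy3 signals were 277 and 273 in 786-O, 81.6 and 85.0 in T24, and 88.7, 57.2 and 44.7 in PC3. In C4-2 it read 22.3 and was not well above background. The computed log2 gap from PC3 to C4-2 was 0.59, which did not pass the test (limma, adjusted p = 0.129). With an offset of 0 it was 2.62 and passed it (0.0114). On the normalized scale 786-O was 4.62-fold higher than T24 (limma, adjusted p = 0.0197), 6.03-fold higher than PC3 (0.00667) and at least 8.28-fold higher than C4-2 (0.00558). The first of these lost its call without the mock of the 48 h array (adjusted p = 0.074) and with the 75th percentile scaling (0.077). T24 and PC3, at 6.75 and 6.37 ± 0.28 (SD, n = 3), were not told apart (adjusted p = 0.323).

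ITGB4, the hemidesmosome subunit, was highest in PC3 and not well above background in 786-O, the line highest for ITGB3. Its raw Cy3 signals were 657, 1049 and 1077 in PC3 and 149 and 152 in T24, while 25.9 in C4-2 and 23.1 and 22.8 in 786-O were not well above background. PC3 was 3.94-fold higher than T24 (limma, adjusted p = 0.0245, or 0.0777 without the mock of the 48 h array), at least 10.3-fold higher than C4-2 (0.00479) and at least 11.2-fold higher than 786-O (0.00678). Its SD of 0.39 over the PC3 mocks was the largest of the 10 genes. T24 was at least 2.84-fold higher than 786-O, but this missed the threshold (adjusted p = 0.0745, or 0.0337 without the mock of the 24 h array and 0.00372 with an offset of 0).

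ITGB8, which with ITGAV binds latent TGF-beta, read 7.26 in 786-O and 6.46 ± 0.29 (SD, n = 3) in PC3 (limma, adjusted p = 0.0854, or 0.0422 without the mock of the miR-125b-1-3p array). C4-2 and T24, both at 5.76, were not well above background. The computed log2 gaps from PC3 to C4-2 and T24 were 0.70 and 0.70, which did not pass the test (limma, adjusted p = 0.0955 and 0.122). With an offset of 0 they were 3.02 and 3.10 and passed it (0.00733 and 0.0119). 786-O was at least 2.54-fold higher than C4-2 (adjusted p = 0.0311) and at least 2.64-fold higher than T24 (0.0447). Both calls were lost without the mock of the 48 h array, at adjusted p = 0.0873 and 0.119, and with all genes tested, at 0.0524 and 0.0713.

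The treated channel was then read against the mock channel of the same array. Each value is the log2 ratio of treated to mock signal after background correction and within-array loess, and a gene is counted as lower or higher when its ratio is below -0.5 or above 0.5 and it is well above background in both channels. Of 80 values, 67 were measured in this way, 4 were lower and 12 higher, beside 1.95% of all measured gene values lower and 1.65% higher over the 8 arrays. Past a size of 1.0 there remained 1 lower value, ITGB3 with miR-532-3p, and 2 higher values, ITGB4 with bisamide at both times, and none passed 1.5. Over all genes and arrays, 0.238% of measured values were lower and 0.143% higher past 1.0, and 0.0518% and 0.0266% past 1.5.

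**Figure D2:**
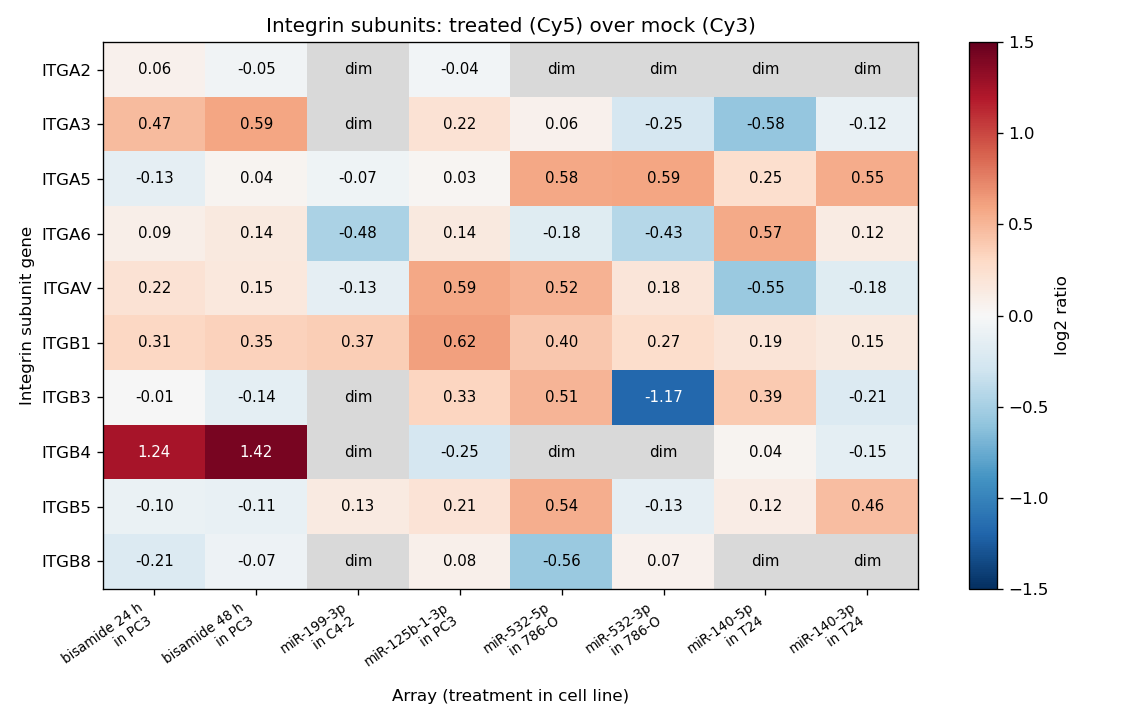
Log2 ratio of treated (Cy5) over mock (Cy3) signal for each integrin subunit (rows) on each array (columns), with red for higher and blue for lower in treated cells and grey, marked dim, for values not well above background in both channels. The ITGB4 values of 1.24 and 1.42 with bisamide and the ITGB3 value of -1.17 with miR-532-3p are the 3 past a size of 1.0.

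Bisamide was accompanied by higher ITGB4 in PC3 at both times. At 24 h the raw signal was 657 in mock and 2889 in treated cells, a log2 ratio of 1.24 (2.36-fold). At 48 h it was 1049 and 5372, a log2 ratio of 1.42 (2.68-fold). ITGB4 ranked 20 from the top among 19240 measured genes at 24 h and 9 from the top among 19020 at 48 h. On the miR-125b-1-3p array, the third in PC3, ITGB4 read 1077 in mock and 1553 in treated cells, a log2 ratio of -0.25 (0.44 under median centring, where the all-gene median was 0.42). Its treated signal with bisamide was thus above its treated signal with miR-125b-1-3p at both times.

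ITGA6, its only known alpha partner, had smaller ratios on the same arrays. It had log2 ratios of 0.09 and 0.14 with bisamide at 24 h and 48 h on 1 probe, and 0.23 and 0.31 on the other. ITGA3 read 1056 in mock and 2716 in treated cells at 24 h, and 856 and 2364 at 48 h, with log2 ratios of 0.47 and 0.59. The remaining values of the bisamide arrays lay between -0.21 (ITGB8 at 24 h) and 0.35 (ITGB1 at 48 h). The ITGB8 value at 24 h rests on low signals and was -0.58 with an offset of 0 and -0.67 in the scanner's own ratio. Counted over the 10 genes, 1 was higher and 0 lower at 24 h, where 1.05% of all genes were higher and 0.4% lower. At 48 h 2 were higher and 0 lower, beside 0.915% and 0.878% of all genes. The difference between the times was at most 0.19 in size for any of the 10 genes. The times have a mock each, and no test of the difference was run.

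**Figure D3:**
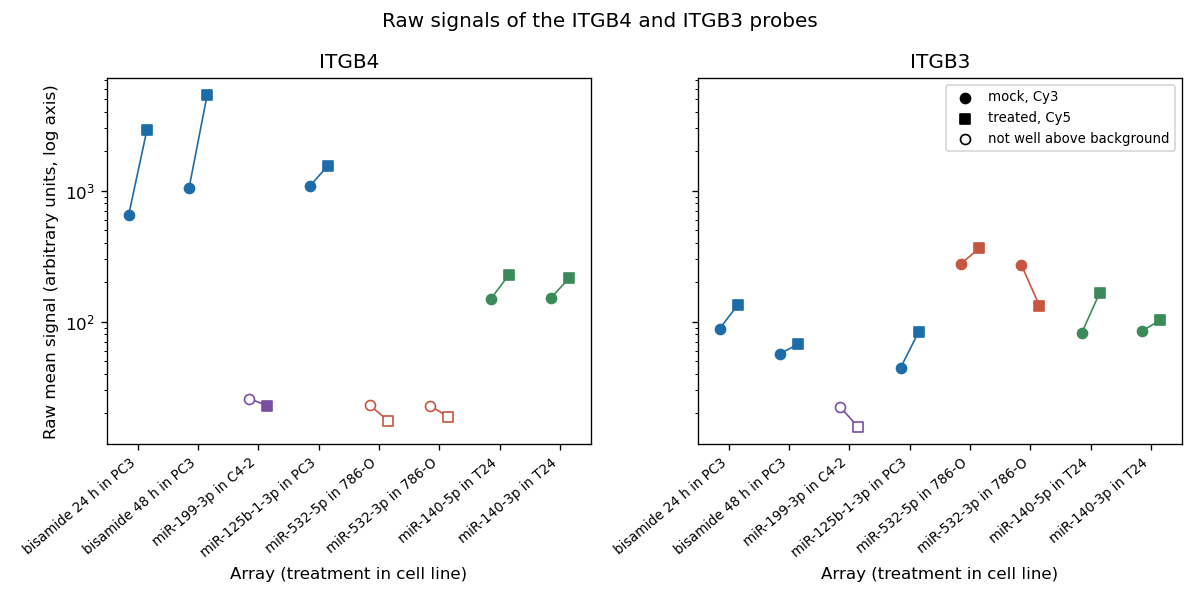
Raw mean signals (arbitrary units, log axis) of the ITGB4 probe (left) and the ITGB3 probe (right) on each array, with circles for mock (Cy3), squares for treated (Cy5) and open symbols for signals not well above background. ITGB4 runs from 657 to 2889 and from 1049 to 5372 on the bisamide arrays, and ITGB3 runs down from 273 to 133 with miR-532-3p.

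With miR-125b-1-3p in PC3, ITGB1 and ITGAV were the 2 genes counted as higher and none was lower, beside 1.77% and 0.883% of all genes. ITGB1 read 749 in mock and 2002 in treated cells, a log2 ratio of 0.62, and ITGAV read 211 and 529, a log2 ratio of 0.59. Both genes have 10 spots on each array, over which the SD of the log2 ratio was 0.026 to 0.064 for ITGB1 and 0.026 to 0.072 for ITGAV. This is the spread between spots of an array, and no array was repeated. Under median centring ITGB1 and ITGAV read 1.305 and 1.148 with miR-125b-1-3p, where the all-gene median was 0.42. The mean over the ITGB1 probes was 0.35. ITGB3, another partner of ITGAV, had a log2 ratio of 0.33 at low raw signals of 44.7 and 84.1, and of 0.71 with an offset of 0, 0.60 with median centring and 0.67 in the scanner's own ratio, all past the threshold. The other 7 values ran from -0.25 for ITGB4 to 0.22 for ITGA3.

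C4-2 with miR-199-3p left 5 genes to measure, and none of these passed 0.5 in either direction, beside 2.73% of all genes lower and 1.76% higher. The value nearest the threshold was ITGA6, with raw signals of 50.7 in mock and 30.6 in treated cells and a log2 ratio of -0.48. Because these signals are low, the ratio depended on the correction: it was -1.45 with an offset of 0, -0.92 with no background correction and -1.75 in the scanner's own ratio, all past the threshold. The second ITGA6 probe gave -0.24. ITGB1 had a log2 ratio of 0.37 (0.50 with an offset of 0 and 0.53 in the scanner's own ratio), and ITGB5, ITGA5 and ITGAV lay at 0.13, -0.07 and -0.13.

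The miR-532 strands were tested in 786-O, the line with the highest mock level of 7 of the 10 genes. With miR-532-5p, 4 of the 8 measured genes were higher, namely ITGA5 (log2 ratio 0.58), ITGB5 (0.54), ITGAV (0.52) and ITGB3 (0.51), and 1, ITGB8, was lower. Of all genes, 3.6% were higher and 3.67% lower on that array. The median of the 8 genes was 0.46, against 0.00076 for all genes. Under median centring, however, none of the 10 passed 0.5 upwards, and the median was 0.33 against -0.03 for all genes. ITGB8 read 79.5 in mock and 36.1 in treated cells, a log2 ratio of -0.56. It was -1.32 with an offset of 0 and -1.44 in the scanner's own ratio, since an offset compresses low signals.

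With miR-532-3p, ITGB3 was lower and ITGA5 higher, the only 2 of the 8 measured genes past 0.5, beside 3.84% of all genes lower and 1.71% higher. ITGB3 read 273 in mock and 133 in treated cells, a log2 ratio of -1.17 (2.26-fold lower), which ranked 56 from the bottom among 15442 measured genes. On the miR-532-5p array it read 277 in mock and 362 in treated cells, a log2 ratio of 0.51. The mock signals of the pair of arrays were thus nearly equal and the treated signals far apart, a difference of 1.69 in log2 ratio. ITGB5 and ITGB8 also differed between the strands, by 0.68 (lower with miR-532-3p) and 0.63 (higher with miR-532-3p), while ITGA5 had 0.58 and 0.59. The arrays appear to share their mock, each strand has 1 array, and these differences were not tested. ITGA6 read 68.5 in mock and 49.8 in treated cells with miR-532-3p, a log2 ratio of -0.43 that passed the threshold with an offset of 0, with no background correction and in the scanner's own ratio, where it reached -0.92.

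In T24, miR-140-5p went with lower ITGA3 and ITGAV and with higher ITGA6, 3 of 8 measured genes, beside 2.89% of all genes lower and 1.74% higher. ITGA3 read 664 in mock and 724 in treated cells, a log2 ratio of -0.58, and ITGAV read 762 and 858, a log2 ratio of -0.55. For both, the treated signal is the larger before normalization, and under median centring the ratios were 0.08 and 0.13, next to an all-gene median of 0.35 on that array, so that their direction held only relative to other genes. ITGA6 read 529 in mock and 1350 in treated cells, a log2 ratio of 0.57, and its second probe 169 and 492, a log2 ratio of 0.81. ITGB3 had a log2 ratio of 0.39, which was past the threshold with an offset of 0 (0.57), with no background correction (0.52) and in the scanner's own ratio (0.61), and ITGB4 one of 0.04.

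With miR-140-3p, 1 of the 8 genes passed 0.5, ITGA5, which read 67.7 in mock and 174 in treated cells with a log2 ratio of 0.55, beside 0.998% of all genes higher and 1.09% lower. ITGB5 followed at 0.46. ITGA3 and ITGAV lay at -0.12 and -0.18, which is 0.46 and 0.38 above their values with miR-140-5p, and ITGB3 at -0.21, which is 0.60 below. These arrays too appear to share their mock, and the differences were not tested.

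Read by gene, ITGB1 was the one subunit with ratios above 0 on all 8 arrays. These ran from 0.15 with miR-140-3p in T24 to 0.62 with miR-125b-1-3p in PC3. The ITGB1 ratio stayed above 0 under each of the 7 other settings that gave one. Among these, the series table repeats the scanner's ratio, and leaving out the filter on dim probes repeats the main ratio. The second ITGB1 probe, which the array design also places in a long noncoding transcript, was not well above background on any array. ITGB3 had the widest range of ratios, 1.69, followed by ITGB4 with 1.67 and ITGA3 with 1.17. This order depended on the correction: ITGA6 had the second widest range with an offset of 0 (2.05, after ITGB3 with 2.23) and the widest among measured values in the scanner's own ratio (2.35, against 2.21 for ITGB3). ITGA2 was measured on the 3 PC3 arrays alone, where its ratios were -0.05 to 0.06. The 2 ITGA6 probes had the same sign on 7 of the 8 arrays, the exception being miR-532-5p, with -0.18 and 0.03.

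**Figure D4:**
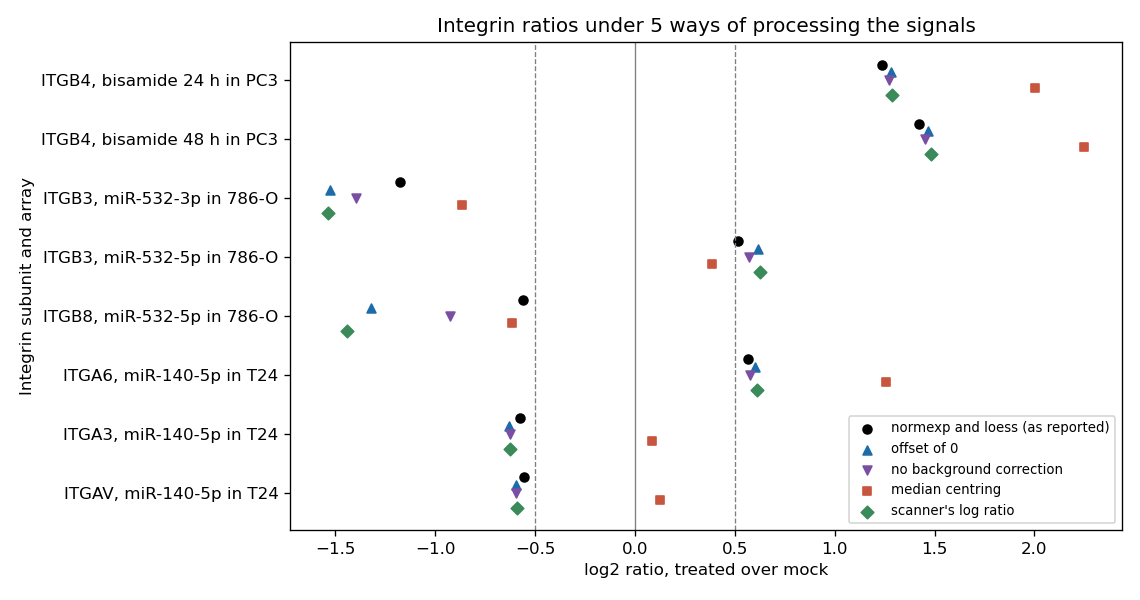
Log2 ratio of treated over mock (horizontal axis) for 8 pairs of integrin subunit and array under 5 ways of processing the same signals, with dashed lines at -0.5 and 0.5. The ITGB4 values lie between 1.24 and 2.25 and the ITGB3 values with miR-532-3p between -1.54 and -0.87, while ITGA3 and ITGAV with miR-140-5p cross 0 under median centring.

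In GRCh37 coordinates, the representing probes of the genes with the largest ratios lie at chr17:73753824-73753883 on the plus strand for ITGB4 and chr17:45389027-45389086 on the plus strand for ITGB3. Those of ITGA3, ITGA6, ITGAV and ITGB8 lie at chr17:48167365-48167424, chr2:173370556-173370615, chr2:187545295-187545354 and chr7:20455137-20455196, all on the plus strand. The probes of ITGA5, ITGB1 and ITGB5 lie on the minus strand, at chr12:54789656-54789715, chr10:33200507-33200566 and chr3:124482491-124482550, and that of ITGA2 on the plus strand at chr5:52389637-52389696. The second ITGA6 probe lies at chr2:173369203-173369262 and the second ITGB1 probe at chr10:33247733-33247792. The files pair probes with genes but not with exons.

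The wider adhesion machinery was read from 4 further lists. Among the 16 other integrin subunits, 4 to 8 were measured on an array, at most 1 of them passed 0.5, and these were all higher. They came from the miR-125b-1-3p array and the 2 arrays of 786-O, with miR-532-5p and with miR-532-3p, where 1.77%, 3.6% and 1.71% of all genes, in that order, were higher. The largest were ITGA7, a laminin receptor subunit, with miR-125b-1-3p (raw 187 and 672, log2 ratio 1.05) and ITGB2, the leukocyte beta subunit, with miR-532-5p (raw 146 and 308, log2 ratio 1.09). Among 24 matrix ligands, COL4A2, a basement membrane collagen chain, ran both ways, from 2013 to 762 with miR-140-5p in T24 (log2 ratio -2.15) and from 788 to 3183 with miR-125b-1-3p in PC3 (1.19). On the miR-140-5p array 4 of 17 measured ligands were lower and 1 higher, beside 2.89% and 1.74% of all genes, with a list median of -0.10 against 0.0094. With bisamide at 48 h 0 of 19 ligands passed 0.5 in either direction, beside 0.915% of all genes higher and 0.878% lower. On each remaining array more ligands were higher than lower. Higher and lower were 2 and 0 of 19 with bisamide at 24 h, beside 1.05% and 0.4% of all genes. They were 3 and 0 of 20 with miR-125b-1-3p, beside 1.77% and 0.883%, and 3 and 1 of 18 with miR-532-3p, beside 1.71% and 3.84%. With miR-532-5p 4 of 18 were higher and 1 lower, beside 3.6% and 3.67% of all genes. With miR-199-3p 3 of 14 were higher and 0 lower, beside 1.76% and 2.73%. With miR-140-3p 2 of 17 were higher and 1 lower, beside 0.998% and 1.09%.

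Among 26 adaptors and kinases, 23 to 25 were measured on each array and at most 3 passed 0.5. Those were 1 lower and 2 higher with miR-532-5p, beside 3.67% and 3.6% of all genes. PXN, the focal adhesion adaptor paxillin, read 584 in mock and 272 in treated cells with miR-199-3p in C4-2, a log2 ratio of -1.57. Among 12 membrane and hemidesmosome partners, CD151, a tetraspanin that associates with laminin-binding integrins, read 1725 and 674 on the same array. Its log2 ratio was -1.98. In the C4-2 mock ITGA3 and ITGB4 were not well above background, while ITGA6, ITGB1 and ITGA7 were, at raw signals of 50.7, 90.7 and 104. SDC4, the heparan sulphate proteoglycan syndecan-4 of focal adhesions, read 501 and 206 with miR-532-3p in 786-O, a log2 ratio of -1.51, on the array where ITGB3 was lowest. CAV1, the coat protein of caveolae, had a log2 ratio of -1.10 with miR-140-5p in T24, where its raw signals were 1394 and 1116. Of the partners, 3 of 11 measured were higher with bisamide at 48 h, beside 0.915% of all genes, 3 of 10 lower with miR-532-3p, beside 3.84%, 3 of 11 lower with miR-140-5p, beside 2.89%, and 2 of 9 lower with miR-199-3p, beside 2.73%.

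The genes whose ratios ran most like those of the 3 widest-ranging subunits over the 8 arrays were taken from 12579 genes measured on every array. They were RPL36A, an unnamed transcript (ENST00000487216) and FAM219B for ITGB4, with Pearson's r of 0.99, 0.98 and 0.98. For ITGB3 they were the probe A_19_P00808758, CCNY and SMARCE1 (r of 0.98, 0.96 and 0.95), and for ITGA3 lnc-ARID2-3, SLC38A10 and DHX32 (0.97, 0.96 and 0.96). The 8 arrays share a slide, some appear to share a mock, the choice of the 3 subunits rests on the offset of 50, the 3 subunits were themselves not measured on every array, and with 8 points the best of so many genes is a description only.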

How the data were processed

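RNA of 8 treated cultures and their mocks was hybridised to 8 2-colour arrays on 1 slide, read in 1 scan. Groups follow the treatment and cell line in the labels. The authors extracted signals with Agilent Feature Extraction 11.5.1.1, as the headers state, and the deposited intensity values are mean spot signals and median local backgrounds on a linear scale, not normalized. The deposited log10 ratio of Cy5 over Cy3 was made by that software, and the series table holds the same values, with a largest difference of 0. Files give coordinates in GRCh37 and gene names of the array design.

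Intensities were corrected by normexp with an offset of 50 (limma 3.58.1, R 4.3.3) and normalized by loess within arrays. Control and outlier spots were left out, spots of a probe were averaged, and the probe with the highest mean intensity represented a gene. Mock levels are Cy3 signals after normexp and quantile normalization between the 8 arrays. Lines were compared by limma with 2 residual degrees of freedom over genes above background on at least 1 array, with Benjamini-Hochberg adjustment at 0.05 in each of 6 contrasts. No p-value was given for ratios. Precision is limited by the number of arrays. No spot was saturated on any array.

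On simulated ratios of 58201 probes, 200 were changed by 2 on the log2 scale. These were bright probes, well above background in Cy3 on every array, and were scored on their mean over 8 simulated arrays. Of them, 97.5% were recovered, with a median fitted size of 1.53, so the processing compressed these ratios. No simulation was run without the offset, so its part in this was not tested. The share recovered on a single array, or among dim probes, was not simulated. On simulated mocks of PC3 and T24, 76% of 200 genes among 22625 changed by 2 on the log2 scale were called. The change was added after the offset and the normalization, so this share does not cover the compression of dim signals. The members, lists and thresholds were chosen with earlier results of these data known. All members were named, and from the other lists each gene past 1.5 on any array and at most 3 per list and array past 1.0. KLK3 was always named, 1 further gene under this rule is not reported here, and also named were the 3 genes most alike to each of the 3 members of widest range. Alternatives were an offset of 0, no background correction, median centring, the scanner's ratio, the series table, the mean over probes, no filter on dim probes, sizes of 1.0 and 1.5, and for mocks also Aquantile normalization, 75th percentile scaling, all arrays as separate mocks and leaving out each PC3 mock.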

Additional observations from a re-analysis of the deposited data

Results flagged for a closer look

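ITGB3 lay past 0.5 in opposite directions with the strands of miR-532 in 786-O, with a log2 ratio of 0.51 with miR-532-5p and -1.17 with miR-532-3p. Under median centring these ratios were 0.39 and -0.87, so that with miR-532-5p no longer passed 0.5. The difference between the strands was not tested, as a strand has a single array. No other integrin subunit passed 0.5 in opposite directions between the bisamide times, the miR-532 strands or the miR-140 strands. No group held enough arrays to look for a sample apart from the others.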

How the results depend on the processing

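No paired analysis was possible because no group has a second array, and no block for the slide could be fitted because all arrays lay on 1 slide. Counts are of integrin subunits past 0.5. The share of all genes past 0.5 was computed under the main settings only, so the recomputed counts of ratios have none beside them. Of 144 recomputed counts of ratios, 98 stayed within 1.5 times. These include counts of 0 that stayed at 0, and the series table, whose counts repeat those of the scanner's ratio. With an offset of 0, in the scanner's ratio and in the series table, bisamide at 24 h had 1 lower, miR-199-3p 1 lower and 1 higher, miR-532-3p 2 lower and miR-140-5p 2 higher. With no background correction, miR-199-3p had 1 lower, miR-532-3p 2 lower and miR-140-5p 2 higher. With median centring, which put the all-gene median at -0.03 for miR-532-5p and at 0.17 to 0.45 on the other arrays, the higher counts were 5 and 6 for bisamide at 24 h and 48 h, 1 for miR-199-3p, 6 for miR-125b-1-3p, 0 for miR-532-5p, 3 for miR-532-3p, 5 for miR-140-5p (0 lower) and 6 for miR-140-3p. With all-gene medians of up to 0.45, close to the threshold, these higher counts cannot be read as particular to the integrin subunits. Under median centring ITGA3 and ITGAV with miR-140-5p reversed to 0.083 and 0.13. The mean over probes left 1 higher with miR-125b-1-3p. Past 1.0, bisamide at 24 h and 48 h had 1 higher each, miR-532-3p 1 lower and all other counts were 0, and past 1.5 all were 0.

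Between mocks, PC3 against T24 gave 4 calls with the 75th percentile scaling and with an offset of 0, beside 28.6% and 32.4% of all genes. Taking each array as its own mock counts mocks that appear to be shared as separate samples. In that setting PC3 against 786-O gave 10, PC3 against T24 gave 7 and C4-2 against T24 gave 8. The shares of all genes called rose too, to 56.7%, 51.2% and 53.8% in that order, from 33.8%, 29% and 37.3%. Leaving out 1 PC3 mock gave 5 to 7 calls for PC3 against C4-2, beside 31.3% to 49.2% of all genes. PC3 against 786-O gave 6 to 8, beside 17.2% to 38.8%, and PC3 against T24 1 to 4, beside 13% to 34.4%. C4-2 against 786-O gave 6 to 8, beside 23.9% to 42.5%, and C4-2 against T24 5 to 6, beside 23.9% to 43.2%. For 786-O against T24 there were 3 to 6, beside 7.26% to 28.9%. Without the 48 h mock PC3 against T24 gave 1 and 786-O against T24 gave 3, beside 13% and 7.26% of all genes. Without the miR-125b-1-3p mock PC3 against T24 gave 4, beside 34.4%. No called difference between mocks reversed under any of these. The cause of these shifts was not tested. Signals near background limit the ratios of ITGA2 and ITGB8, ITGB4 in 786-O, and ITGA6 and ITGB3 in lines where they are low.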
